A study of Mus musculus with 2 samples.

Results

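The genes described here are the heterogeneous nuclear ribonucleoproteins (hnRNPs), the SR proteins with their Tra2 relatives, and the subunits of splicing factor 3 (SF3) in mouse cerebral cortex. They were chosen by symbol, as every gene with a protein_coding transcript whose symbol starts with Hnrnp, Srsf, Tra2, Sf3a or Sf3b. The rule gave 42 of 55536 annotated genes, namely 20 hnRNP genes, 11 Srsf genes, 2 Tra2 genes, 3 Sf3a genes and 6 Sf3b genes. A further 3 genes with such a symbol had no protein_coding transcript and were not used. The Srsf and Tra2 genes form 1 family below, the 13 SR genes.

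Total RNA was sequenced from the left cortex of 2 male mice, replicates 1 and 2 of a single group, aged 8 to 10 months, from a cross of the 5xFAD and CAST strains. The libraries have separate biosample labels but share a donor label at the level of the strain, and were taken as 2 animals. The 5xFAD line carries human transgenes with familial Alzheimer disease mutations under the neuronal Thy1 promoter and forms amyloid plaques, while CAST mice are inbred from wild stock. The animals carried the same genotype label, no animal without the transgenes was analysed here, and the libraries were made from 300 ng of RNA after removal of ribosomal RNA, with spike-in RNA added. With a single group there is no contrast and no p-value, and each statement describes these 2 libraries.

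Pre-mRNA splicing begins when U1 binds the 5′ splice site and U2 binds the branch point, with U2 held in place by the SF3a and SF3b complexes. SR proteins bind exons and usually favour their use, while many hnRNPs bind introns or exons and repress it. Many genes of both families limit their own protein by splicing in an exon with a premature stop codon or by keeping an intron. Such transcripts are degraded by nonsense-mediated decay or stay in the nucleus, and total RNA also holds unspliced nuclear RNA.

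Replicate 1 held 34101499 expected counts and replicate 2 held 32543032. The 42 genes took 137091 and 136306 of them. These are 0.404% and 0.421% of the reads on annotated genes. The least read gene, Sf3b5, still had 324 and 289 reads. Markers of the labelled tissue were high: the synaptic gene Snap25 averaged 1243 ± 106 TPM and the cortical excitatory neuron gene Slc17a7 450 ± 37.6 TPM (SD, n = 2). The cerebellar genes Pcp2 and Cbln3 stood at 0 and 0.055 TPM. The choroid plexus gene Kl stood at 5.17 TPM in replicate 1 and 1.76 TPM in replicate 2, and Aqp1 at 1.77 and 0.62 TPM, and their part in the differences between the animals was not tested. TPM is the abundance of a gene's transcripts corrected for their length and for depth. In bulk tissue, a lower level from fewer cells of a type and one from less RNA per cell cannot be told apart.

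All 42 genes were detected, at 1 TPM or more in each animal, as 59.6% of 21901 protein-coding genes were. Their median level was 52.0 TPM (49.7 in replicate 1 and 54.3 in replicate 2), against 15.1 TPM for the 13055 detected protein-coding genes. By family, the hnRNP genes had a median of 74.9 TPM, the SR genes 36.2 TPM and the SF3 genes 23.9 TPM. A level of 100 TPM or more in both animals was reached by 7 of the 42 genes, against 5.97% of detected protein-coding genes. These 7 were Hnrnpk, Hnrnpa2b1, Hnrnpl, Hnrnpu, Srsf5, Hnrnpa3 and Hnrnpa1.

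Among the hnRNP genes, Hnrnpk led by TPM, with 260.2 TPM in replicate 1 and 294.9 TPM in replicate 2. In reads, which are not divided by length, it stood below Hnrnpu, at 8179 and 7882 against 10275 and 10787. In the kallisto-format table Hnrnpk stood higher and the animals in the other order, at 441.7 and 381.3 TPM. It encodes a protein that binds C-rich RNA and DNA and lies on mm10 chromosome 13, 58391142 to 58403343. Hnrnpa2b1, whose protein also carries RNA in neuronal dendrites, had 174.0 and 196.6 TPM. Hnrnpl, which binds CA repeats, had 174.6 and 189.7 TPM, so these last values overlapped between the genes. Hnrnpll, the paralogue of Hnrnpl known from splicing of the CD45 gene in T cells, stood far lower at 22.7 and 24.9 TPM. Hnrnph3, a member of the G-run binding hnRNP H group, was the lowest of the family at 21.9 and 21.2 TPM.

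Of the SR genes, Srsf5 had 137.5 and 153.1 TPM in replicates 1 and 2. Srsf1, the classical splicing factor SF2/ASF, followed at 72.6 and 82.9 TPM, and Srsf2, also known as SC35, at 62.3 and 72.1 TPM. Tra2a, a binder of GAA-rich exonic enhancers, stood at 20.9 and 24.2 TPM, below its paralogue Tra2b at 28.6 and 33.6 TPM. Srsf12 was the lowest at 11.4 and 9.73 TPM. Within the SF3 complexes, whose subunits work together, levels were far from equal. Sf3b2 had 87.2 and 90.5 TPM and Sf3b1, the subunit that clasps the branch point, 57.7 and 68.5 TPM. Sf3b6, the small subunit p14 that also lies at the branch point, had 32.7 and 30.6 TPM. Sf3a3 had 14.7 and 17.5 TPM, and Sf3b5 3.47 and 3.46 TPM, on an annotated transcript of 3841 bases.

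**Figure D1:**
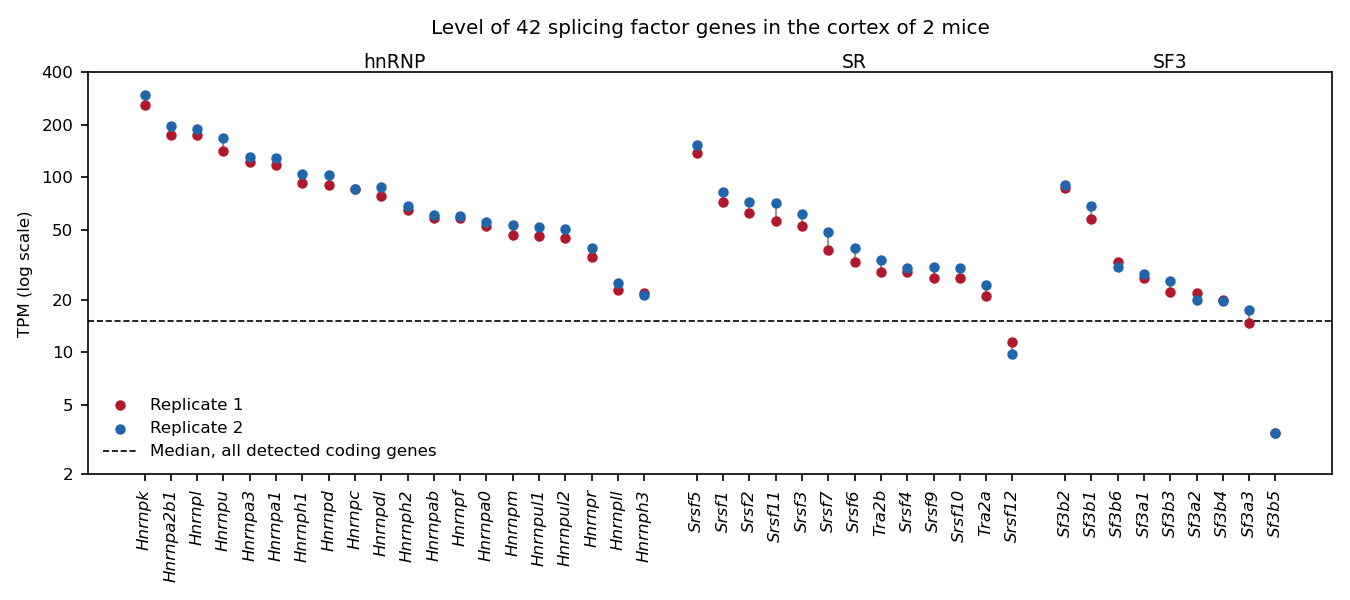
Level in TPM (log axis) of the 42 genes in replicate 1 (red) and replicate 2 (blue), by family and mean level, with the median of 13055 detected protein-coding genes as a dashed line. The values run between 3.465 TPM for Sf3b5 and 277.5 TPM for Hnrnpk on average, and the 2 animals lie close together beside this range.

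The animals differed little beside the distance between genes: the coefficient of variation over the 2 animals had a median of 8.45%. In the order of mean level, 29 of the 41 pairs of neighbours had overlapping ranges. TPM was higher in replicate 2 for 35 of the 42 genes, as it was for 77.4% of detected protein-coding genes, and the median log2 ratio of TPM, replicate 1 over replicate 2, was -0.17 for the 42 genes and -0.12 for all detected protein-coding genes. Part of the sequence of some genes recurs in other genes, which leaves the split of their reads uncertain. The share of 100-base windows found in another gene was 32.5% for Sf3b4, 31.5% for Hnrnpf, 25.9% for Hnrnpa1 and 25.6% for Hnrnpa3, and 12.4% or less for each of the others.

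A large part of the RNA of these genes was assigned to transcripts not annotated as coding. The annotation lists 336 transcripts for them, of which 152 are protein_coding, 101 retained_intron, 40 nonsense_mediated_decay and 43 processed_transcript, a class without an annotated reading frame. Of the TPM of the 42 genes, 71.5% in replicate 1 and 68.1% in replicate 2 lay on coding transcripts, against 86.0% and 84.9% for all detected protein-coding genes. Retained-intron transcripts carried 13.5% and 15.5% of it, against 6.70% and 7.53%, and decay transcripts 9.52% and 10.2%, against 2.51% and 2.57%.

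A gene can hold such a share only if the annotation gives it a transcript of the type. A retained-intron transcript is annotated for 31 of the 42 genes, against 58.2% of detected protein-coding genes. A decay transcript is annotated for 22 of the 42, against 28.0%, and at least 1 of either type for 33, against 64.1%. The 42 genes also had more annotated transcripts, with a median of 7 against 5. Over the 33 genes, the retained-intron and decay transcripts together took a median of 27.5% of the gene's TPM (26.5% and 27.9% in replicates 1 and 2). For the 8365 detected genes with such a transcript the median was 12.8%. In the 4160 of these with at least 7 annotated transcripts, a comparison added after the data were seen, it was 17.1%. Counted in reads, which weigh long transcripts more, the medians were 18.1% for the 33 genes and 6.78% for the 8365.

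**Figure D2:**
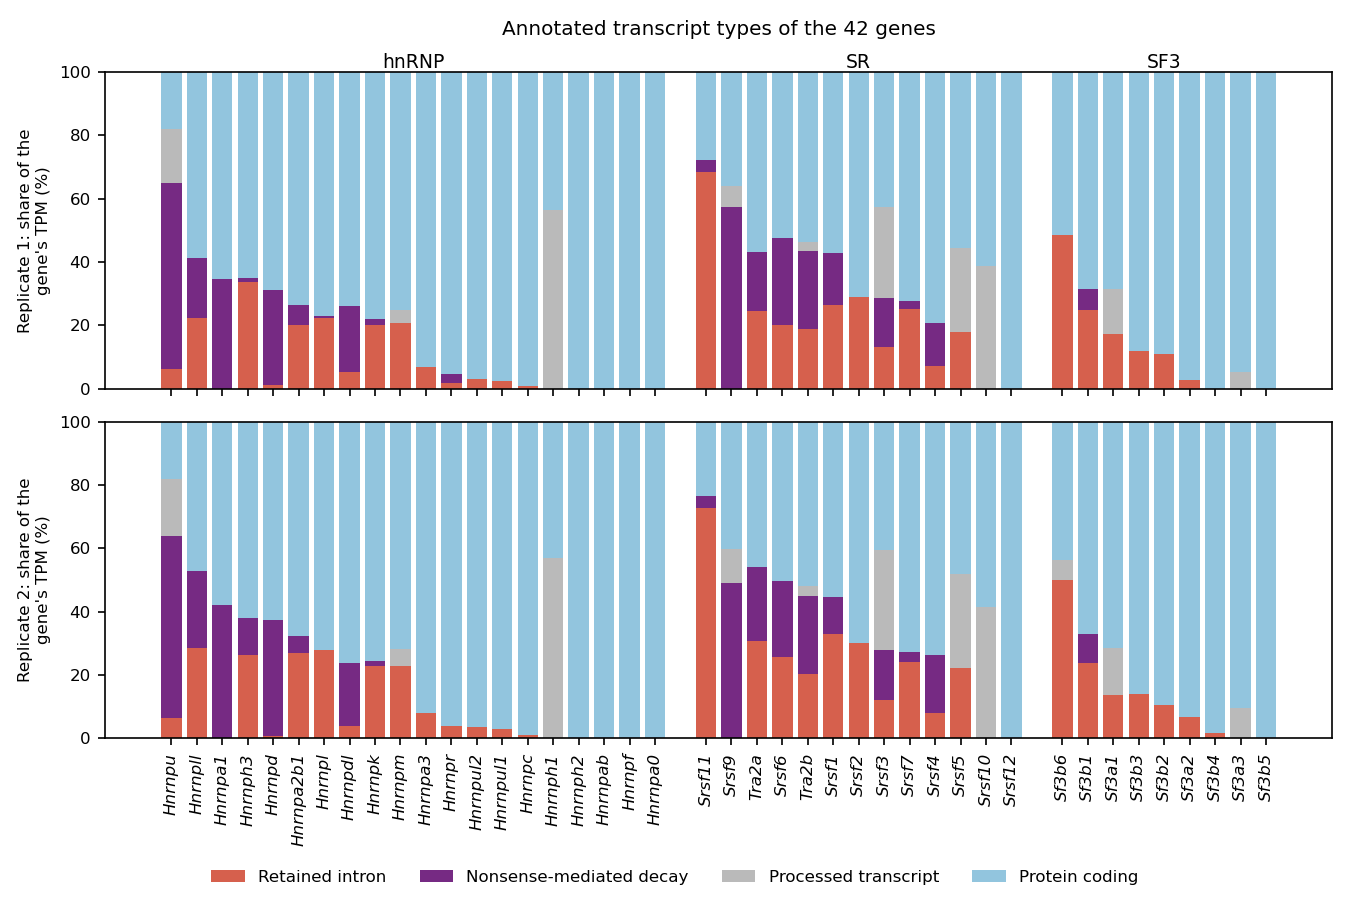
Share of each gene's TPM on retained-intron, nonsense-mediated decay, processed and coding transcripts, in replicate 1 (top) and replicate 2 (bottom), for the 42 genes by family and falling summed share. Srsf11 and Hnrnpu have the tallest retained-intron and decay bars in both animals, at 72.2% and 64.95% in replicate 1 and 76.4% and 63.95% in replicate 2.

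The summed share reached 50% in both animals in 2 of the 33 genes, Srsf11 and Hnrnpu, a share of genes near the 7.02% of all detected genes with such a transcript. In the kallisto-format table it did so in 6 of the 33, against 7.33%. In the RSEM-format table, more of the 33 genes had intermediate shares. A summed share of at least 25% in both animals was held by 17 of the 33, against 24.2% of such genes, and by 10 of the 19 with at least 7 annotated transcripts, against 30.0%. By mean share, 10 of the 33 genes lay between 20% and 30%, 4 between 30% and 40% and 6 between 40% and 50%. The other detected genes fell in these classes in 13.4%, 8.92% and 5.18% of cases. The median was 43.7% for the 11 SR genes with such a transcript, 24.99% for 15 hnRNP genes and 13.0% for 7 SF3 genes. The SR median pools 9 Srsf genes, with a median of 29.5%, and 2 Tra2 genes, with 46.5%. It is the value of Srsf1, whose summed share in reads was 14.03%. In the kallisto-format table the SR median was 35.7% and the hnRNP median 27.05%, with the SF3 genes still lowest. The share did not follow the level of the gene, with a Spearman's rho of 0.0030 between TPM and summed share over the 33 genes, which share libraries and annotation.

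**Figure D3:**
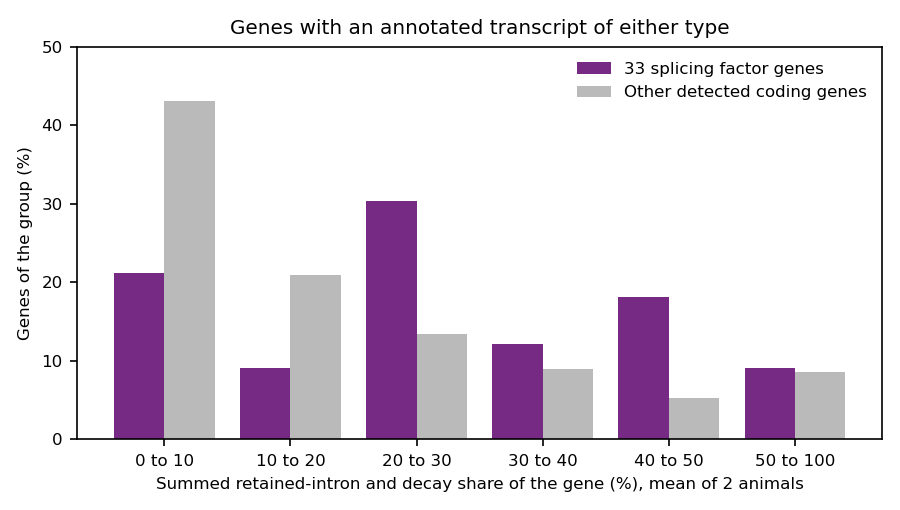
Distribution of the summed retained-intron and decay share (mean of 2 animals) in the 33 splicing factor genes (purple) and in the other detected protein-coding genes (grey) that have an annotated transcript of either type. Under 10% lie 21.2% of the splicing factor genes and 43.1% of the others.

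By share of the gene's TPM, retained-intron transcripts were highest in Srsf11, which encodes an SR protein found with the U2 auxiliary factor (mm10 chromosome 3, 158010473 to 158036639). Its retained-intron share was 68.5% in replicate 1 and 72.8% in replicate 2. The share was not the work of a single transcript: Srsf11-208 carried 19.7% and 19.6%, Srsf11-211 10.3% and 14.5%, Srsf11-203 12.5% and 12.2% and Srsf11-213 11.1% and 11.6%, of 11 annotated ones. Its most abundant coding transcript, Srsf11-202, carried 15.4% and 17.8%. Sf3b6 came next with 48.6% and 50.1%, nearly all on Sf3b6-202, a transcript of 455 bases that took 46.0% and 47.6% of the TPM but 133.3 and 115.2 of 584 and 480 reads. Only 13.8% of its bases lay outside the most abundant coding transcript.

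Of the other genes, Hnrnph3 held 33.8% and 26.4% on retained-intron transcripts, Srsf1 26.5% and 32.8%, and Srsf2 28.95% and 30.01%. All of the Srsf2 share lay on Srsf2-203, which keeps intron 2 of 2, 1059 bases at chromosome 11, 116850962 to 116852020. Tra2a held 24.4% and 30.8%, Hnrnpll 22.4% and 28.6% and Hnrnpl 22.5% and 27.9%. In each of these but Hnrnph3, replicate 2 was higher. In reads, the shares of Hnrnph3 and Srsf1 were lower, 17.5% and 13.0% for Hnrnph3 and 7.45% and 9.73% for Srsf1, and that of Tra2a was higher, 39.7% and 47.2%. Over the 31 genes with an annotated retained-intron transcript, the share was higher in replicate 2 in 23. The same held for 63.9% of the 7441 detected protein-coding genes with a retained-intron share above 0. In the kallisto-format table the share was higher in replicate 2 in 20 of the 31, against 62.1% of 7449 such genes. The nuclear RNA Malat1 stood at 3085 TPM in replicate 1 and 4151 TPM in replicate 2, and the part of nuclear RNA in this difference was not tested.

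By share of TPM in the RSEM-format table, decay transcripts were most abundant in Hnrnpu, which encodes scaffold attachment factor A, a nuclear matrix protein (mm10 chromosome 1, 178321108 to 178337797). They held 58.9% of its TPM in replicate 1 and 57.4% in replicate 2. Hnrnpu-206 alone carried 45.6% and 44.0%, against 18.2% and 18.1% for the most abundant coding transcript, Hnrnpu-201. Hnrnpu-206 shares 12 of its 17 exons exactly with Hnrnpu-201, and only 9.39% of its 2844 bases lie outside that transcript, which is 7640 bases long. In reads, the decay share of Hnrnpu was 44.0% and 42.9%. Another of its decay transcripts, Hnrnpu-209, of 351 bases, held 13.2% and 12.4% in the RSEM-format table but 1.01% and 0% in the kallisto-format table. Counted on coding transcripts alone, Hnrnpu had 25.6 and 30.3 TPM. That is rank 24 of the 42 genes, while on all transcripts it held rank 4.

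Srsf9, an SR protein similar to Srsf1, held 57.4% and 49.1% on its single decay transcript Srsf9-205, against 32.8% and 38.9% on the coding Srsf9-201. Its decay share was above that of Hnrnpu in reads, at 62.5% and 53.9%, and in the kallisto-format table, at 55.4% and 49.4%, where Hnrnpu had 44.2% and 43.6%. Hnrnpa1, among the most abundant nuclear RNA-binding proteins, held 34.7% and 42.1%, mostly on Hnrnpa1-203 with 26.5% and 31.6%. This transcript has the same stop codon as the most abundant coding transcript of the gene and differs mainly in the exons after it. Of the 20 genes with a decay transcript above 0 TPM, Hnrnpa2b1 was the other one for which the stop codon was shared. How often this occurs in other detected genes was not counted. Hnrnpd, also known as AUF1, which binds AU-rich elements, held 29.9% and 36.6%, but 13.8% and 17.1% in reads and 18.6% and 25.95% in the kallisto-format table. Srsf6 held 27.3% and 24.1%, Tra2b 24.8% and 24.6%, Hnrnpll 18.9% and 24.4% and Tra2a 18.9% and 23.5%. In reads, Srsf6 held 15.3% and 13.4%. The decay share was higher in replicate 2 in 9 of 20 genes. The same held for 51.8% of the 2981 detected protein-coding genes with a decay share above 0.

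In 10 genes, the most abundant decay transcript held, relative to the most abundant coding one, a cassette exon with the annotated stop codon, with both neighbouring splice sites shared. These were Srsf9, Tra2b, Srsf6, Tra2a, Hnrnpll, Srsf3, Sf3b1, Srsf11, Hnrnpl and Srsf7, of 20 genes with a decay transcript above 0 TPM. Such exons were not counted in other detected genes, so the count does not set these genes apart. The exons were 56 to 460 bases long, and in 7 the length was not a multiple of 3. The exon was not always the only difference: Srsf9-205 has another cassette exon of 90 bases, and 951 bases of Srsf7-203 lie outside the coding transcript, against an exon of 460 bases. For Hnrnpk and Hnrnpd the most abundant coding transcript was a model of 485 and 493 bases, so that cassette exons elsewhere in these genes could not be found in this way. The results turn on 5 of these exons, those of Tra2a, Tra2b, Srsf6, Srsf9 and Hnrnpll, which are among the 8 genes with the highest decay shares. Their sequences are given from the exon's first base to the end of the stop codon, 5′ to 3′ on the transcribed strand and with the stop codon in capitals. They were read from the transcript sequences of GENCODE M21 (mm10). The stretches lie at chr6:49252965-49253108 on the minus strand for Tra2a, chr16:22259181-22259261 on the minus strand for Tra2b, chr2:162932815-162932966 on the plus strand for Srsf6, chr5:115328347-115328428 on the plus strand for Srsf9 and chr17:80044976-80045022 on the minus strand for Hnrnpll.
Tra2a: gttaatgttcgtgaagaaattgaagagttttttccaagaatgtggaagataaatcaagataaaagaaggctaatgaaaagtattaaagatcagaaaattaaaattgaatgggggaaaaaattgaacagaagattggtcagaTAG
Tra2b: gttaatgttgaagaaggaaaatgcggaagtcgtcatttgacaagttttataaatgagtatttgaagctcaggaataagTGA
Srsf6: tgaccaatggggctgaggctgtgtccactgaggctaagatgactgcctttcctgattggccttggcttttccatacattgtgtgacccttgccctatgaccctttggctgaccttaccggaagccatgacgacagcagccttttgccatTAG
Srsf9: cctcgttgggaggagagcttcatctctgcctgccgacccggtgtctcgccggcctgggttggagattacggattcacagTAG
Hnrnpll: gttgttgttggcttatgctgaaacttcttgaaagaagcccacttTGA

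The stop codon begins at base 142 of the 306-base Tra2a exon, base 79 of the 276-base Tra2b exon, base 150 of the 268-base Srsf6 exon, base 80 of the 358-base Srsf9 exon and base 45 of the 83-base Hnrnpll exon. The Tra2a and Tra2b exons are both exon 2 of their decay transcripts, and their first 9 bases are identical. The triplet GAA, part of the sequence that Tra2 proteins are known to bind, occurs 32 times in the whole Tra2a exon and 28 times in the whole Tra2b exon, overlaps allowed. It occurs 12 and 6 times in the stretches shown. In 4345 internal exons of 260 to 320 bases from protein_coding transcripts the median was 6, and 0.046% and 0.069% of them held as many. The Srsf6 exon, of similar length, held 2. On the other strand, where the triplet reads TTC, the Tra2a and Tra2b exons held 2 and 0, against a median of 4. The triplet count describes the letters and is not a measure of binding.

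Inclusion of these exons was computed, in the RSEM-format table, from the TPM of transcripts of the gene that contain the exon with exactly its ends. It is their percent of the transcripts that contain or skip the exon. Transcripts that cover it within a longer exon, as where the intron is kept, were left out. For Srsf11 these held 7.04 and 8.77 TPM, against 1.48 and 0.92 TPM with the exon. Inclusion in Srsf9 was 66.1% in replicate 1 and 60.6% in replicate 2 (63.3 ± 3.89%, mean ± SD, n = 2). Tra2b had 40.6% and 44.8%, Srsf6 34.3% and 32.3% and Srsf3, the smallest SR protein, 25.04% and 25.8%. Tra2a had 24.1% and 32.3% and Hnrnpll 22.0% and 29.1%, with replicate 2 higher in both. The exon of Sf3b1 was included in 8.51% and 12.1%, that of Srsf11 in 8.75% and 4.72%, that of Hnrnpl in 4.45% and 5.32% and that of Srsf7 in 3.31% and 4.00%. The Hnrnpl values lay mostly on a transcript of another type. Its decay transcript Hnrnpl-213 carried only 0.39% and 0% of the gene's TPM. In this table, the upper 6 genes thus lay between 22.0% and 66.1% and the lower 4 at 12.1% or less, in both animals.

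**Figure D4:**
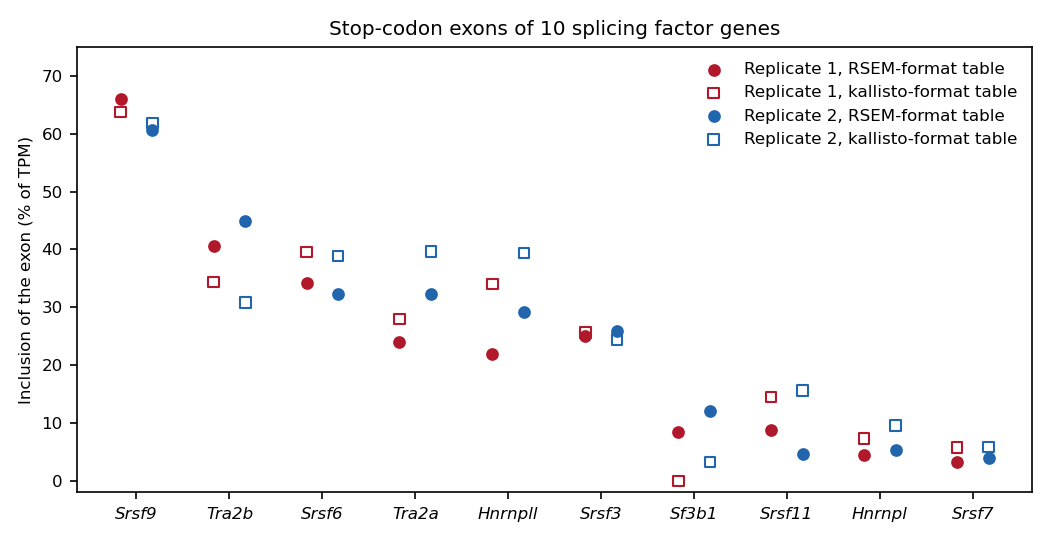
Inclusion (percent of TPM) of the stop-codon exon of 10 genes in replicate 1 (red) and replicate 2 (blue), from the RSEM-format (filled circles) and the kallisto-format table (open squares). Srsf9 is highest at 66.1% and 60.6%, and for Sf3b1 the open squares lie at 0% and 3.29%.

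How far the 2 quantifications of the same reads were apart depended on the gene. In the kallisto-format table Srsf9 stood at 63.8% and 61.9% and Srsf3 at 25.6% and 24.5%, close to the values above. Tra2b stood lower at 34.4% and 30.8%, Hnrnpll higher at 34.0% and 39.4%, and Sf3b1 at 0% and 3.29%. Srsf11 stood at 14.5% and 15.6%, Hnrnpl at 7.31% and 9.59% and Srsf7 at 5.78% and 5.85%. In Srsf3, Srsf6, Srsf7 and Sf3b1 the most abundant retained-intron transcript keeps the very intron that holds the cassette exon, so that reads on the exon can be assigned to either. For Srsf6 this is Srsf6-204, which keeps intron 2 of 5, 1283 bases at chromosome 2, 162932143 to 162933425, and carried 20.2% and 25.6% of the gene's TPM. For Sf3b1 it is Sf3b1-203, which keeps intron 4 of 24 and carried 18.2% and 18.4%. Other transcripts cover the cassette exon within a longer exon in Tra2b and Srsf11, and reads on it can be assigned to these too. In the RSEM-format table they held 22.4% and 22.7% in Tra2b and 29.4% and 31.0% in Srsf11. These are percents of the TPM of transcripts that contain, skip or cover the exon.

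On coding transcripts alone, other genes took other ranks too. Srsf11 had 15.7 and 16.9 TPM and rank 34, while on all transcripts it held rank 16. Srsf9 had 9.63 and 12.4 TPM and rank 40, in place of rank 31. Hnrnpk held rank 1 on either count, with 203.1 and 222.7 TPM on coding transcripts. Its most abundant coding transcript, the model of 485 bases, carried 31.9% and 23.4% of the gene's TPM, so the rank leans on a short model. Hnrnph1, a G-run binding hnRNP, held rank 20 in place of rank 8, and here the other RNA was of another class: processed_transcript entries held a mean of 56.7% of its TPM. The most abundant transcript was not a coding one in both animals in 4 of the 42 genes, against 5.33% of detected protein-coding genes. These were Hnrnpu, Srsf11, Srsf9 and Sf3b6.

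The total level of these genes was nearly equal in the 2 animals. The ratio was taken on rounded expected counts, scaled by TMM, with 0.5 reads added. A gene was called different when the ratio was 2-fold or more, with 10 or more reads in a library and equal levels outside the Clopper-Pearson counting interval taken at an error of 0.1%. None of the 42 met this rule. Of 19484 genes with 10 or more reads in a library, 0.647% were higher in replicate 1 by it and 0.57% higher in replicate 2, or 1.22% in all. Of the 13055 detected protein-coding genes, only 16 were higher in replicate 1 by it and 11 higher in replicate 2. At this share, none of 42 does not set these genes apart. For the 42 genes, the log2 ratios of replicate 1 over replicate 2 ran between -0.19 and 0.25. The largest were those of Sf3b6 at 0.25 (95% Clopper-Pearson interval 0.07 to 0.42), with 584 and 480 reads, and Srsf12 at 0.23 (0.03 to 0.43), with 452 and 377 reads. Srsf11 followed at -0.19 (-0.27 to -0.12), with 2503 and 2794 reads. By the interval at an error of 0.1% alone, Hnrnpc was higher in replicate 1, and Hnrnpu, Srsf11, Sf3b1 and Srsf6 were higher in replicate 2. By that interval, 4.44% of all tested genes were higher in replicate 1 and 4.35% higher in replicate 2. Intervals cover counting error only, and not the spread between animals. They treat reads as independent molecules, which reads are not, and so may be too narrow even for counting error.

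**Figure D5:**
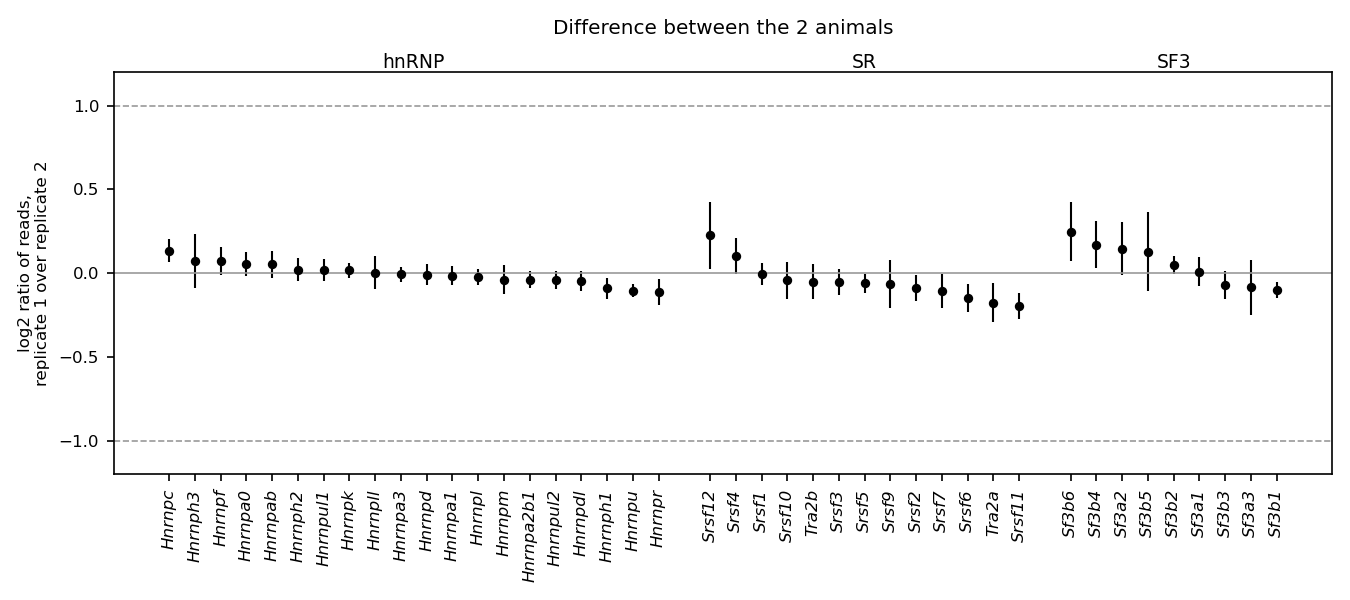
The log2 ratio of scaled reads, replicate 1 over replicate 2, of the 42 genes with 95% Clopper-Pearson intervals (bars), by family, and the 2-fold limits as dashed lines. All points lie between -0.19 and 0.25, inside the limits.

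Other genes of splicing were set beside these, from 6 lists of 106 genes. Medians of the summed share are over the 87 of these with an annotated transcript of either type, and median levels over all genes of a list. The 7 SR protein kinases, which phosphorylate SR proteins and control where they reside, had a median summed share of 51.6%, with Clk1 at 82.6% in replicate 1 and 80.0% in replicate 2. Their median level was 36.7 TPM, with Srpk2 highest at 70.4 and 81.8 TPM. The 23 SR-related proteins had a median share of 29.0%, over the 22 with such a transcript, and a median level of 44.6 TPM, with Rsrp1 at 59.8% and 55.9%. Srrm2, a scaffold of nuclear speckles, had the highest level of that list, 183.6 and 234.4 TPM.

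Lower medians were found in the remaining lists. The 21 splice site factors had a median share of 20.9% over 18 with such a transcript, led by Prpf3 of the U4/U6 particle at 66.2% and 71.0%, and Prpf19 had their highest level at 81.0 and 96.3 TPM. The 20 hnRNP-family proteins under other symbols had 16.9% over 17, led by Tardbp, which encodes TDP-43, at 38.5% and 47.1%, and Pcbp2 had their highest level at 211.6 and 223.9 TPM. The 16 nonsense-mediated decay factors had 12.4% over 9, led by Rbm8a of the exon junction complex at 48.4% and 39.4%, and their highest level was that of Eif4a3 at 37.9 and 40.3 TPM. The 19 core snRNP proteins had 5.66% over 14, led by Snrpb2 at 63.5% and 58.2%, and Snrpn, of the neuronal snRNP core, had their highest level at 350.4 and 375.8 TPM. In both animals 8 of the 106 had a summed share of at least 50%, against 4.5% of all detected protein-coding genes. None of the 106 met the 2-fold rule between the animals. Of the 13055 detected protein-coding genes, 16 met it as higher in replicate 1 and 11 as higher in replicate 2.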

How the data were processed

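Total RNA of 2 libraries of a single group was used. Per the labels' protocols, libraries were made with a directional kit. The authors deposited, per library, RSEM-format gene and transcript tables and a kallisto-format transcript table; a deposited text description names mm10 and annotation M21. In the RSEM-format tables the values are, per the file headers, expected counts, TPM, FPKM and each transcript's percent of its gene. The authors' kallisto-format values are estimated counts and TPM, per the file headers. For aligner, versions and strand setting: not given in the sources used here.

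Levels are deposited TPM. Shares are the deposited percent summed per gene over transcripts of a type. Entries that are no gene held 0.517% and 0.500% of expected counts and were left out. Expected counts were rounded for the ratio, which used TMM sizes of edgeR 4.0.16 (DESeq2 1.42.0 size factors as an alternative). The rule was also run on simulated counts with counting error only. These held no spread between animals, so they cannot show how the rule behaves under such spread. A gene was detected if its TPM was at least 1 in each library. Alternatives were other scalings, the kallisto-format table, other thresholds and backgrounds, and each library alone.

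The members, lists and rules were chosen with earlier results of these data known. Genes named with values are the 3 highest and 2 lowest of each family in TPM, the 8 highest in either share, and the 3 with the largest ratio; cassette exons, their shared introns, Hnrnpu-209, coding-only ranks and Hnrnph1 were added after values were seen. Exons were to be read from a genome and up to 300 bases long; they were read from transcript sequences, their coding part only, without that limit.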

Additional observations from a re-analysis of the deposited data

How the results depend on the processing

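No paired analysis was possible because both libraries belong to a single group. The median level of 52.0 TPM became 119.2 TPM when TPM was rescaled to nuclear protein-coding genes and 36.8 in FPKM; without a TPM minimum the background median of 15.1 TPM became 4.005. The median summed share of 27.5% became 30.6% in the kallisto-format table, 18.1% in reads and 29.5% with processed_transcript added, and 26.5% to 27.85% with each library alone. Its background median of 12.8% became 14.8%, 6.78% and 17.85% under the same changes, 11.25% at a TPM of 10 and 17.1% for genes with at least 7 annotated transcripts, and stayed below the median of the 33 genes under each. The count of 2 genes at 50% or more became 17 at 25%, 6 in the kallisto-format table (Hnrnph3, Hnrnpll, Srsf6 and Sf3b6 added), 3 in reads (Srsf11, Srsf9 and Tra2a), 4 with processed_transcript added, and 3 to 5 with a single library, since Srsf9, Tra2a, Hnrnpll, Srsf6 and Sf3b6 lie near the threshold. Of the background genes, the percent at 50% or more, 7.02%, became 24.2% at 25%, 7.33% in the kallisto-format table and 4.99% in reads. It became 10.9% with processed_transcript added, and 8.50% to 9.24% with a single library. The median share of the other splicing genes, 24.4% over the 87 of 106 with an annotated transcript of either type, was 21.4% to 23.95% with each library alone. No member met the 2-fold rule under any of 6 alternatives; by spike-in totals the members' median log2 ratio was -0.10 in place of -0.02, and that of detected protein-coding genes -0.07 in place of 0.01. Of 39 recomputed values of the main results and their background medians, 17 moved. Of 266 recomputed values of single genes, lists and backgrounds, 101 moved. A move was a change by more than the SD of the animals or, for counts, by more than 1.5 times. For the percent of the background at 50% or more, the limit was 0.5 points. Depth limits the small shares, and how reads are divided among overlapping transcripts limits all of them.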
